A study of Mus musculus with 35 samples.

Results

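The mesothelium is the flat epithelium-like cell layer that covers the abdominal organs and the fat pads lying in the abdominal cavity. The genes described here are 10 markers of that layer, Msln, Upk3b, Upk1b, Lrrn4, Gpm6a, Wt1, Krt8, Krt18, Krt19 and Aldh1a2. They were chosen by name, with earlier results of these data known. All 10 were found by Ensembl identifier among the 18947 genes of the table in which the study's authors deposited their mRNA comparison of 2 fat depots. The comparison set 4 samples of iBAT against 4 samples of eWAT, both from untreated, wild-type male mice of 15 weeks, labelled C57BL/6 by sample and C57BL/6J in the protocol. Other samples of the series spell these depots out as interscapular brown and epididymal white adipose tissue. Whole flash-frozen tissue was used, and the sources used here do not say whether each mRNA sample came from 1 mouse or a pool. The series has 35 samples in all, and its 18 miRNA and 9 Argonaute HITS-CLIP samples were not used here.

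Mesothelial cells line body cavities with a slippery surface, carry keratins like other epithelia, and keep a set of transcription factors from the embryonic coelomic lining, among them WT1. Epididymal fat is a visceral pad with a mesothelial cover. Interscapular brown fat lies under the skin between the shoulder blades, outside any body cavity. Retinoic acid is made by the coelomic lining during development, through the enzyme encoded by Aldh1a2.

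All 10 mesothelial genes were lower in iBAT than in eWAT per the authors' deposited table, at an adjusted p under 0.05. Over all 18947 genes the same call was made for 27.1% in this direction and for 20.9% in the other, 48.0% in all. Centring fold changes on the median of all genes turned that balance, to 4246 genes higher and 4008 lower, with all 10 members still lower. The members' log2 fold changes, iBAT over eWAT, ran between -15.22 (Krt8) and -2.09 (Lrrn4) with a median of -8.92 per the authors' deposited table, beside a median of -0.10 over all genes. Ranked by log2 fold change with the lowest first, 6 of the 10 stood among the lowest 1% of genes and 9 among the lowest 5%. Lrrn4 was the exception, at rank 1901. The table gives each gene's mean normalized count over all libraries (base mean), a fold change with its standard error (SE) and p-values, but no value of a single library, so no spread between samples and no overlap of groups could be examined. In whole tissue, fewer cells of a type and less RNA per cell cannot be told apart. The header does not state the direction of the fold change. It was read from Ucp1 (15.87 ± 0.90, SE), Cidea (9.58 ± 0.13) and Lep (-2.77 ± 0.84) per the authors' deposited table, which mark brown and white fat and are not members.

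**Figure D1:**
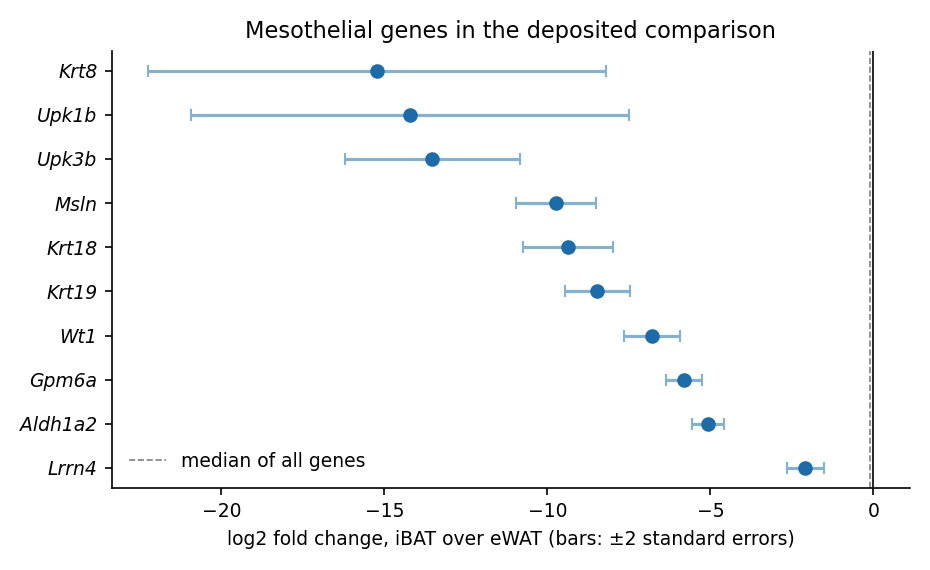
Log2 fold change of each of the 10 mesothelial genes, iBAT over eWAT, as deposited by the authors (points), with bars of 2 standard errors to each side; the dashed line is the median of all genes at -0.10. Every bar lies left of 0, the bars of Krt8 and Upk1b are the widest, and Lrrn4 lies nearest to 0 at -2.09.

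Because the base mean is an average over all libraries, depot means were estimated from the base mean and the fold change. The estimates assume that exactly these 4 and 4 libraries entered the base mean. They also assume that the deposited fold change is the plain ratio of the depot means. Fold changes that were shrunk would break that last assumption, and no source used here states whether they were. These estimates are normalized counts without length correction, so they compare depots within a gene and not genes with each other. They carry no error and rest on the authors' deposited table alone.

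The surface proteins of the layer come first. Msln (ENSMUSG00000063011, GRCm38 chromosome 17, 25748613 to 25754378) encodes mesothelin, a glycosylphosphatidylinositol-anchored surface protein that binds the mucin MUC16. Its base mean was 1036 and its log2 fold change -9.74 ± 0.61 (SE; adjusted p = 5.01e-54) per the authors' deposited table. The estimated means were 2.43 normalized counts in iBAT and 2070 in eWAT, an 853-fold difference.

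Upk3b (ENSMUSG00000042985, chromosome 5, 136038496 to 136044993) and Upk1b (ENSMUSG00000049436, chromosome 16, 38773182 to 38800203) encode uroplakins, membrane proteins first described in the bladder lining. Upk1b is a tetraspanin. Upk3b had a base mean of 2361 and a log2 fold change of -13.53 ± 1.34 (adjusted p = 8.38e-37), and Upk1b a base mean of 639.5 and -14.21 ± 3.36 (adjusted p = 1.98e-30), per the authors' deposited table. The estimated mean of Upk3b was 0.40 normalized counts in iBAT and 4722 in eWAT. For Upk1b it was 0.068 in iBAT and 1279 in eWAT. Both uroplakins were thus below 1 normalized count in iBAT by this estimate.

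The other uroplakin genes were scarce in the same table. Upk1a had a base mean of 50.2 (-1.87 ± 0.76, adjusted p = 0.00671) and Upk2 a base mean of 11.6 (-6.83 ± 3.21, adjusted p = 0.000826) per the authors' deposited table. The call of Upk2 was lost when p-values were recomputed as the ratio of fold change to SE (adjusted p = 0.0741). Upk3bl, a relative of Upk3b that lies next to it on chromosome 5, had a base mean of 2.50 and was not called (-0.15 ± 0.86, adjusted p = 0.823) per the authors' deposited table. The sources used here do not say how reads were divided between Upk3b and such relatives.

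Gpm6a (ENSMUSG00000031517, chromosome 8, 54779434 to 55060878) encodes a membrane glycoprotein of the proteolipid family, best known from neurons. Its base mean was 920.6 and its log2 fold change -5.81 ± 0.28 (adjusted p = 1.75e-96) per the authors' deposited table, with estimated means of 32.2 normalized counts in iBAT and 1809 in eWAT. An annotated long noncoding RNA gene without a value in the table overlaps Gpm6a. Its relative Gpm6b was not called (-0.22 ± 0.22, adjusted p = 0.416) per the authors' deposited table.

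Lrrn4 (ENSMUSG00000043110, chromosome 2, 132866686 to 132894010) encodes a neuronal-type leucine-rich repeat membrane protein. It had the smallest difference of the members, with a base mean of 735.9 and a log2 fold change of -2.09 ± 0.28 (adjusted p = 1.59e-13) per the authors' deposited table. Its estimated means were 281 normalized counts in iBAT and 1191 in eWAT, a 4.24-fold difference. It was the member with the largest iBAT estimate as a share of its own eWAT estimate. The end of Lrrn4 shares 101 bases with Crls1, a cardiolipin synthase gene that was higher in iBAT (2.00 ± 0.26, adjusted p = 3.69e-14, base mean 7717) per the authors' deposited table. Reads in the shared stretch cannot be assigned here, since no source used here states the strand setting of the counting, and their part in the Lrrn4 value was not tested. Among the relatives, Lrrn2 was lower in iBAT (-2.77 ± 0.32, adjusted p = 9.36e-18), Lrrn1 was lower with a p close to the threshold (-0.85 ± 0.41, adjusted p = 0.0483) and Lrrn3 was not called (-0.53 ± 0.48, adjusted p = 0.308) per the authors' deposited table. The call of Lrrn1 was lost with such ratio-based p-values (adjusted p = 0.0825).

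The keratin members build the intermediate filaments of simple epithelia. Krt8 encodes a type II keratin that pairs with the type I keratins encoded by Krt18 and Krt19. Krt8 (ENSMUSG00000049382, chromosome 15, 101996711 to 102004342) had a base mean of 1194 and the lowest log2 fold change of the members, -15.22 ± 3.51 (adjusted p = 1.7e-32), per the authors' deposited table. Krt18 (ENSMUSG00000023043, chromosome 15, 102028216 to 102032026) stood at a base mean of 814.1 and -9.37 ± 0.70 (adjusted p = 9.41e-40) per the authors' deposited table. Krt19 (ENSMUSG00000020911, chromosome 11, 100140810 to 100145926) stood at a base mean of 1158 and -8.47 ± 0.50 (adjusted p = 3.98e-65) per the authors' deposited table. The estimated mean of Krt8 was 0.063 normalized counts in iBAT and 2389 in eWAT, that of Krt18 was 2.45 in iBAT and 1626 in eWAT, and that of Krt19 was 6.52 in iBAT and 2309 in eWAT. Krt8 has an annotated pseudogene, Krt8-ps on chromosome 7, with which it may share reads.

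Of 10 other keratin genes measured, 6 were lower in iBAT, none higher and 4 not called (median -1.78), beside 27.1% of all genes called lower. Krt7, another simple-epithelium keratin that mesothelium also carries, was lower in iBAT (-5.34 ± 0.40, adjusted p = 5.46e-40, base mean 377.9) per the authors' deposited table. The basal-cell keratin genes Krt5 (-10.94 ± 3.19, adjusted p = 6.57e-12, base mean 91.7), Krt14 (-10.77 ± 3.07, adjusted p = 3.6e-15, base mean 77.9) and Krt15 (-8.42 ± 3.06, adjusted p = 3.33e-06, base mean 22.9) were lower too per the authors' deposited table. Krt20 (-1.82 ± 1.08, adjusted p = 0.0333) and Krt23 (-1.74 ± 1.24, adjusted p = 0.0476) were called lower at base means of 6.61 and 7.22 per the authors' deposited table, and both calls were lost with such ratio-based p-values (adjusted p = 0.175 and 0.278). Krt4, Krt10, Krt17 and Krt80 were not called per the authors' deposited table. Of 8 genes for proteins that link keratins to desmosomes and the cell cortex, 7 were lower and 1 higher (median -2.46). Over all genes the shares were 27.1% lower and 20.9% higher. Among the linker genes Dsp, which encodes desmoplakin, was lowest (-7.42 ± 1.86, adjusted p = 1.61e-07) per the authors' deposited table. Pkp1, which encodes plakophilin 1, came next at a base mean of only 6.25 (-4.15 ± 1.68, adjusted p = 0.00147) per the authors' deposited table. Plec, the plectin gene, was higher in iBAT (0.70 ± 0.17, adjusted p = 0.000161) per the authors' deposited table.

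Wt1 (ENSMUSG00000016458, chromosome 2, 105126529 to 105173614) encodes a zinc finger transcription factor of the coelomic lining, the developing kidney and the gonad. Its base mean was 444.6 and its log2 fold change -6.80 ± 0.43 (adjusted p = 3.79e-58) per the authors' deposited table. The estimated means were 7.93 normalized counts in iBAT and 881 in eWAT, a 111-fold difference. Of 9 other transcription factor genes of the lateral plate and viscera, 6 were lower in iBAT, none higher and 3 not called (median -1.28). Of all genes, 27.1% were called lower. Tcf21 (-11.53 ± 3.12, adjusted p = 3.38e-19, base mean 121.5) and Hand2 (-9.14 ± 2.89, adjusted p = 4.23e-11, base mean 29.7) were the lowest and Nr2f1 (-0.85 ± 0.22, adjusted p = 0.000269) the highest of the transcription factor genes called per the authors' deposited table.

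Aldh1a2 (ENSMUSG00000013584, chromosome 9, 71215789 to 71296243) encodes the retinaldehyde dehydrogenase RALDH2, which makes retinoic acid. Its base mean was 478.4 and its log2 fold change -5.08 ± 0.25 (adjusted p = 1.16e-93) per the authors' deposited table, with estimated means of 27.5 normalized counts in iBAT and 929 in eWAT. The sister enzymes moved the same way. Aldh1a1 was lower in iBAT at -3.87 ± 0.21 (adjusted p = 2.79e-76, base mean 6106) and Aldh1a3 at -2.88 ± 0.19 (adjusted p = 3.24e-51, base mean 608.6) per the authors' deposited table. Of 19 measured genes of the retinoic acid pathway other than Aldh1a2, 9 were lower, 4 higher and 6 not called (median -0.62), and 6 were lower and 2 higher when a log2 fold change of at least 1 in size was required as well. Over all genes that stricter call was made for 19.5% as lower and 11.0% as higher, and the call without the size limit for 27.1% and 20.9%. Crabp1, which encodes a cellular retinoic acid binding protein, was lowest (-5.97 ± 0.85, adjusted p = 1.05e-11) per the authors' deposited table. Rarb, a retinoic acid receptor gene that retinoic acid itself induces in many cells, ran against it at 12.97 ± 3.13 (adjusted p = 2.94e-25, base mean 179.6), higher in iBAT, per the authors' deposited table.

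**Figure D2:**
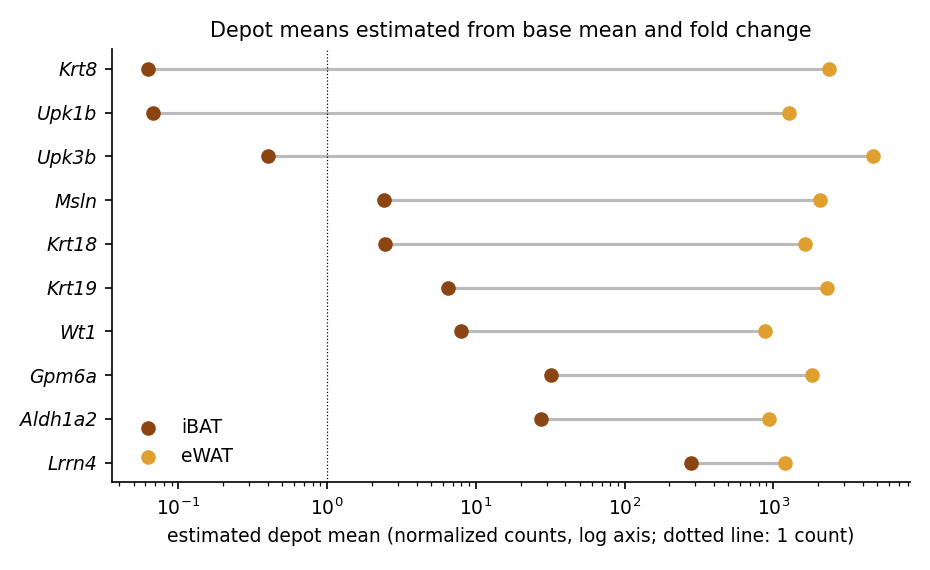
Estimated mean normalized count of each mesothelial gene in iBAT (brown points) and in eWAT (yellow points) on a log axis, solved from the deposited base mean and fold change; the dotted line marks 1 count. Krt8, Upk1b and Upk3b lie below 1 count in iBAT, Lrrn4 lies at 281 in iBAT, and the eWAT estimates of all 10 lie between 881 and 4722.

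The members fell into a graded order by log2 fold change. Starting from the lowest, the order was Krt8, Upk1b, Upk3b, Msln, Krt18, Krt19, Wt1, Gpm6a, Aldh1a2 and Lrrn4. Intervals of 2 SE to each side overlapped between every pair of neighbours in that order except Aldh1a2 and Lrrn4, where the interval of Aldh1a2 ended at -4.59 and that of Lrrn4 began at -2.64. Lrrn4 stood apart in this way from each of the other 9 members. Of all 45 pairs, 28 had intervals that lay apart. Upk3b lay apart from Krt18, Krt19, Wt1, Gpm6a and Aldh1a2, whereas the interval of Krt8 overlapped those of Upk1b, Upk3b, Msln, Krt18 and Krt19. The members come from the same libraries, so these intervals are a description and not a test of the differences between genes.

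The widest intervals belonged to genes with an estimated iBAT mean under 1 normalized count. Krt8 (SE 3.51) and Upk1b (SE 3.36) lay on the lower edge of the cloud formed by all genes, where the fold change follows the base mean. In the whole table, 39 genes of base mean at least 10 had an estimated iBAT mean under 0.1, and the smallest SE among them was 2.91. No library's value is in the table, so whether iBAT libraries were at 0 for these genes is not known, and the sizes of such fold changes are not bounds. The median of the members lies between Krt18 and Krt19 and does not rest on them. For Krt8 and Upk1b the deposited adjusted p was also far smaller than that ratio gives, 1.7e-32 against 6.89e-05 for Krt8 and 1.98e-30 against 0.000108 for Upk1b, with the call unchanged for both. Upk3b showed the same gap, at 8.38e-37 against 1.28e-22. Genes of the other lists with a large SE showed it too. Among them were Rarb (2.94e-25 against 0.000154), Tcf21 (3.38e-19 against 0.000813) and Hand2 (4.23e-11 against 0.00486), each with its call unchanged.

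**Figure D3:**
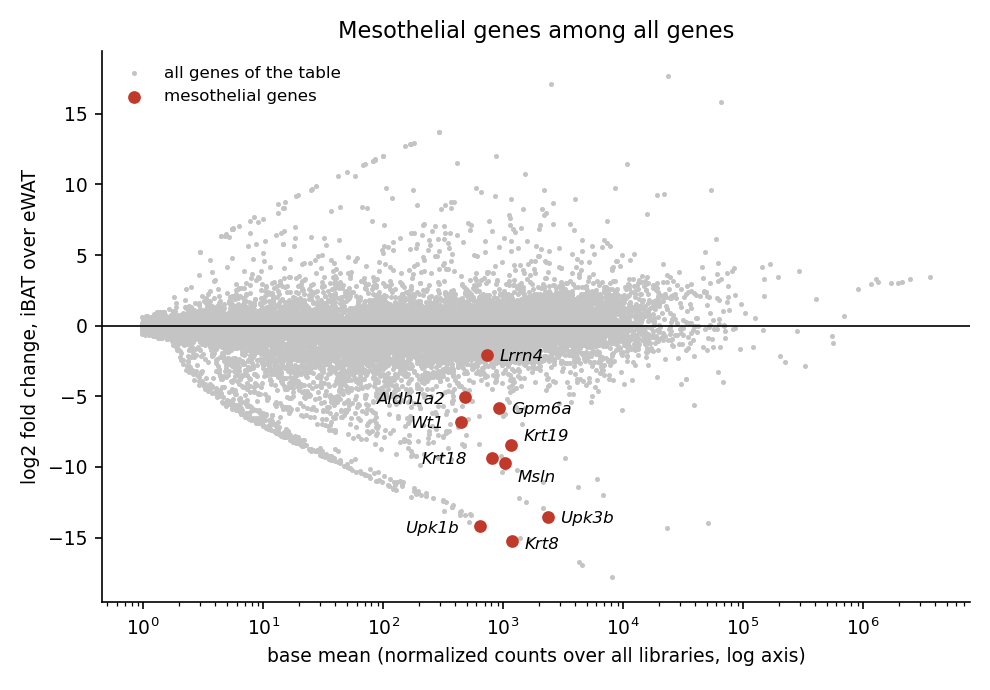
Log2 fold change, iBAT over eWAT, against base mean on a log axis for all 18947 genes (grey) and the 10 mesothelial genes (red, labelled), from the deposited table. Krt8 and Upk1b lie on the lower edge of the cloud at -15.22 and -14.21, and Lrrn4 lies within the cloud at -2.09.

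Krt8 and Krt18 lie 23.9 kb apart on chromosome 15 with no other measured gene between them, the only members that are neighbours. On the far sides lie Krt78, which was not called (-0.86 ± 0.77, adjusted p = 0.206), and the translation factor gene Eif4b, also not called (0.18 ± 0.16, adjusted p = 0.34), per the authors' deposited table. Taking the nearest measured gene without overlap on each side of each member gave 18 genes that are not members. Of these 18, 7 were lower in iBAT, 1 was higher and 10 were not called (median -0.76), beside the 27.1% of all genes called lower. Crls1, which overlaps Lrrn4 and was higher in iBAT, is not counted among them. The 18 included Krt15 next to Krt19, given above, and Aqp9, a glycerol channel gene next to Aldh1a2 (-6.04 ± 0.67, adjusted p = 7.35e-20), named here after its value was seen, per the authors' deposited table. Mslnl, the mesothelin-like gene 0.258 kb from Msln, had a base mean of 2.58 and was not called (-0.75 ± 1.22, adjusted p = 0.218) per the authors' deposited table.

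RefSeq promoter windows on GRCm38.p6, each of 250 bases before an annotated transcript start and 50 after it, were at hand for 6 of the members, with a second start for Gpm6a, 175.3 kb inside the gene. The Lrrn4 window belongs to a transcript that starts 13.2 kb inside the 5′ end of the gene. Some of the stretches that hold a match, and that of Krt18 beside its partner Krt8, are shown to let the letters be read. In the first set, the capitals mark letters of TATANA on either strand, the sequence type of a TATA box. Each stretch covers the 95 bases before the start and the first 5 after it.
Krt8, chr15:102004338-102004437, minus strand: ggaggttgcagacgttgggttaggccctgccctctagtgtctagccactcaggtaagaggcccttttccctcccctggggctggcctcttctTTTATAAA
Krt18, chr15:102028121-102028220, plus strand: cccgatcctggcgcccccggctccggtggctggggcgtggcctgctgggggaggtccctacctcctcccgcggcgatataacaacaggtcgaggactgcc
Aldh1a2, chr9:71215694-71215793, plus strand: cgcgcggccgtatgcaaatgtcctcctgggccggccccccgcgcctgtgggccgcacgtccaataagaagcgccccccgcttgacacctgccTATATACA

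Krt8 and Aldh1a2 carried a TATANA match across the annotated start, and Krt18 had none in its window. The Krt18 stretch does hold the letters tataac before its start, which differ from TATANA only in the last letter. None of the 7 windows had one on the gene's strand wholly within the 50 bases before the start, where 4.40% of all windows have one. The stretches below hold the letters GGAATG, the core bound by TEAD factors, in capitals. In Lrrn4 a first run of capitals marks GNGTGGGNG, a type bound by WT1.
Lrrn4, chr2:132881033-132881092, minus strand: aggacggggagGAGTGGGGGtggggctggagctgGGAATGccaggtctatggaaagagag
Gpm6a, chr8:54779279-54779338, plus strand: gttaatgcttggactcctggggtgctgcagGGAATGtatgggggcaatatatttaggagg

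Each motif was searched on both strands of the 7 windows and of 32841 windows of all genes. GGAATG was in 3 of 7 windows (Lrrn4, Upk3b and the first Gpm6a start), against 14.7% of all windows. GNGTGGGNG was in 2 of 7 (Lrrn4 and Aldh1a2), against 14.3%. TATANA was in 3 of 7, against 24.7%, and CCAAT in 1 of 7, against 37.4%. The GC box GGGCGG was in 1 of 7, against 35.7%. The windows were unlike in base composition. That of Aldh1a2 was 78% G and C with 50 CpG dinucleotides, while that of Upk3b was 58.7% G and C with 2 CpG dinucleotides. Over all windows the median share of G and C was 52.7%. Such matches describe letters and show no binding.

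Further mesothelial markers moved with the members. Of 13 listed, 11 were measured, and 10 were lower in iBAT, none was higher and 1 was not called (median -5.34), beside the 27.1% of all genes called lower. The transcription factor gene Bnc1 (-12.10 ± 3.18, adjusted p = 4.08e-21, base mean 171.8) and Nkain4, which encodes a sodium pump interacting protein (-7.86 ± 0.73, adjusted p = 6.7e-27, base mean 314.1), were lowest per the authors' deposited table. Prg4, which encodes the lubricant proteoglycan lubricin, was the highest of those called (-0.99 ± 0.30, adjusted p = 0.00138) per the authors' deposited table. Calb2, the calretinin gene, was hardly detected at a base mean of 5.64, and its call (-4.60 ± 3.94, adjusted p = 0.0157, per the authors' deposited table) was lost with such ratio-based p-values (adjusted p = 0.387). Pkhd1l1 was not called (0.29 ± 1.08, adjusted p = 0.209, base mean 2.51) per the authors' deposited table. Muc16 and Itln1 were not found by symbol among the genes of the comparison. Krt7 stands in this list and in that of the other keratins. All lists were drawn up with earlier results of these data known.

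Genes of other epithelia moved in the same direction. Keratins 8, 18 and 19 are made by most simple epithelia, the epididymal duct included, so general epithelial and epididymal markers are given beside them. Of 17 epithelial markers, 16 were lower in iBAT, none higher and 1 not called (median -5.69), beside 27.1% of all genes called lower. Prom2 (-15.04 ± 3.96, adjusted p = 7.91e-11, base mean 1387) and Epcam, an adhesion molecule gene of epithelia that mesothelium carries little of (-14.13 ± 3.54, adjusted p = 1.15e-17, base mean 655.8), were lowest per the authors' deposited table. Elf3, the highest of those called, stood at -0.52 ± 1.24 (adjusted p = 0.0109) per the authors' deposited table, and its call was lost with such ratio-based p-values (adjusted p = 0.814).

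Of 17 measured epididymis markers, 12 were lower in iBAT, none higher and 5 not called (median -8.20), beside 27.1% of all genes called lower. The secretory lipocalin gene Lcn5 (-17.81 ± 4.24, adjusted p = 1.42e-13, base mean 8045) and the sperm-maturation gene Adam7 (-16.91 ± 4.17, adjusted p = 2.32e-12, base mean 4569) were lowest per the authors' deposited table. Ros1 was called with a small fold change (-0.30 ± 1.09, adjusted p = 7.57e-11) per the authors' deposited table, and that call was lost with such ratio-based p-values (adjusted p = 0.885). No marker of these lists can be placed in single libraries, so the range of the lists over samples in each depot is not known. The part of epididymal epithelium in the values of Krt8, Krt18 and Krt19 was not tested.

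Stromal progenitors of visceral fat can also express Wt1. Fibroblast and progenitor markers were lower in 12 of 13 cases, higher in none and not called in 1 (median -0.96), beside 27.1% of all genes called lower. Of these markers, 6 were lower by at least 1 on the log2 scale, beside 19.5% of all genes. With fold changes centred on the median of all genes, 11 were called lower and 1 higher. Dpp4 (-2.45 ± 0.29, adjusted p = 1.79e-16) and the matrix proteoglycan gene Dcn (-2.18 ± 0.16, adjusted p = 4.32e-42) were lowest and Col1a1, which encodes a chain of collagen type I, the highest of those called (-0.61 ± 0.18, adjusted p = 0.00212) per the authors' deposited table. The part of stromal cells in the members' values was not tested.

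Of 8 adipocyte markers, 4 were lower, 2 higher and 2 not called, beside 27.1% lower and 20.9% higher over all genes. The 2 higher were Ucp1 and Cidea, which with Lep had served to read the direction of the fold change. Their directions are therefore no result, and no other adipocyte marker was called higher. Besides Lep, the lipid droplet gene Plin1 was lower in iBAT (-3.16 ± 0.58, adjusted p = 2.62e-08) per the authors' deposited table. All 10 skeletal muscle markers were higher in iBAT (median 8.24), beside 20.9% of all genes called higher. These markers were led by the fast myosin gene Myh4 (17.69 ± 1.36, adjusted p = 3.81e-61), with the least difference for Mylpf (4.53 ± 0.52, adjusted p = 3.28e-18) and Acta1 (5.06 ± 0.31, adjusted p = 4.71e-58), per the authors' deposited table.

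**Figure D4:**
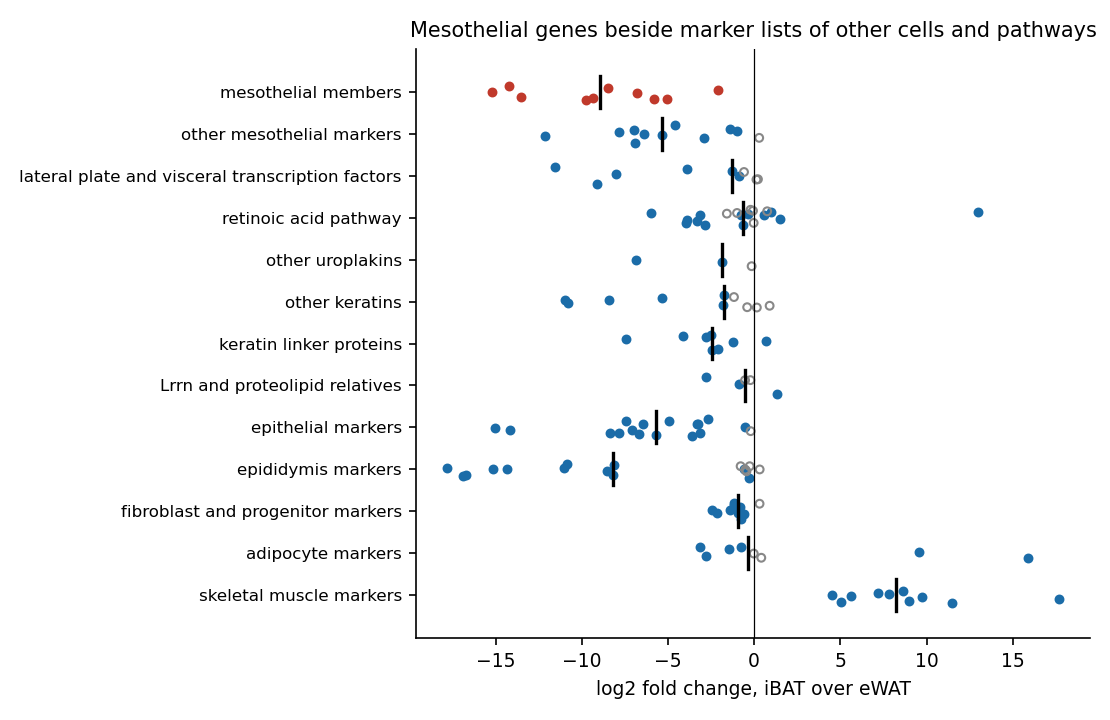
Log2 fold change, iBAT over eWAT, of every measured gene in the mesothelial list (red) and in the lists of other cells and pathways (blue), with genes not called as open circles and each list's median as a black bar; points are spread vertically for legibility. The mesothelial median of -8.92 lies near that of the epididymis markers at -8.20, and the skeletal muscle markers lie to the right of 0 with a median of 8.24.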

How the data were processed

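Groups were taken from the sample titles. Per the labels' protocols, tissue RNA was isolated with TRIzol and RNeasy columns, and a stranded kit for total RNA was used before sequencing on an Illumina NextSeq. Without giving roles, the submitters' processing notes list GRCm38, mm10, DESeq, DESeq2 and kallisto 0.45.0. The mRNA file gives 1 comparison for 18947 genes, 18758 with a symbol in the supplied name table. Its base mean, a signal value, comes from counts scaled by size factors and averaged over every sample, per the file headers. Each log2 fold change has a standard error, both made by the authors, per the file headers. The p-values and their adjusted forms were deposited by the authors with no name of the test. Adjusting the p-values by Benjamini-Hochberg came within 2.4e-07 of the deposited adjusted values. Only 10.7% of p-values lay within 0.01 (log10) of those that the ratio of fold change to SE gives. Fold changes may have been shrunk, which no source states. The depth of single libraries is unknown. No label says that the samples came from separate animals, so the p-values may measure technical spread.

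A gene was called at a deposited adjusted p under 0.05. Alternatives were p-values from the ratio of fold change to SE, fold changes centred on the median of all genes (with such p-values), genes of base mean at least 10, and a log2 fold change of at least 1 in size. These steps were tested on simulated data, whose p-values were made from the ratio of fold change to SE. Most deposited p-values do not follow that ratio, so the simulation cannot show how well calls on them hold. The members and the 12 other lists were chosen with earlier results of these data known. All members are named, and from each other list the 2 lowest and the highest called genes and the relatives of members; Calb2, Pkhd1l1, Cidea, Crls1 and gene neighbours outside that rule were named after their values were seen. A few genes that the rule would name are not reported here. Coordinates are those of RefSeq on GRCm38.p6. Python 3.11.15, pandas 2.3.3 and scipy 1.17.1 were used.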

Additional observations from a re-analysis of the deposited data

How the results depend on the processing

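All 10 mesothelial genes were called lower in iBAT under each of the 4 alternatives. The highest adjusted p was that of Upk1b (0.000119) and Krt8 (7.57e-05), with every other member at 9.89e-12 or less. The base mean and size limits could not remove a member, since all had a base mean of at least 444.6 and a log2 fold change of -2.09 or lower. The remaining alternatives share the ratio-based p-values, so they are not separate checks. With a log2 fold change of at least 1 in size, 8 retinoic acid pathway genes and 6 fibroblast markers were called. Of the other uroplakins, 1 was called with p-values from the ratio of fold change to SE and 1 with centred fold changes. The size limit by its construction removes smaller changes, and for the uroplakins the cause was not tested. For the other genes named above, 21 calls were lost over all genes and alternatives together, and no direction turned. That number leaves out the called genes Calb2, Krt20, Krt23 and Pkp1 at the base mean limit, which their base means did not reach. Over all genes the calls numbered 8107 with p-values from the ratio of fold change to SE, 8254 when centred and 5790 with the size limit, against 9100. No paired analysis was possible because the table holds no value per library, and for the same reason no library could be left out. Without such values the depth behind low genes is unknown.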
